A study of Sus scrofa with 2 samples.

Results

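Ionocytes and tuft cells are rare epithelial cells that are defined by a few transcription factors and effector genes. The levels of 7 such genes, FOXI1, ASCL3, TFCP2L1, ESRRG, POU2F3, TRPM5 and AVIL, were followed across the cell classes of the newborn pig olfactory mucosa (Sus scrofa) and in single nuclei. The genes were chosen by name, with earlier results of these data known, and all 7 were among the 25880 genes listed for both libraries. Single-nucleus RNA sequencing with 10x Genomics droplets had been done on frozen sections of dissected olfactory neuroepithelium. There was 1 library from a newborn wild type piglet and 1 from a newborn CFTR knockout piglet. The knockout is a loss of CFTR, the chloride and bicarbonate channel mutated in cystic fibrosis. The labels do not describe the knockout allele or the strain, and each genotype is 1 animal. No difference between the genotypes was therefore tested, and every ratio below compares these 2 libraries. Intervals are exact 95% intervals that cover counting error only.

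FOXI1 is the forkhead transcription factor that specifies ionocytes, cells that carry vacuolar proton pumps and, in airways, much of the CFTR. ASCL3, TFCP2L1 and the orphan nuclear receptor ESRRG are other transcription factors found in ionocytes and in the proton-secreting cells of the kidney. POU2F3 is the POU-domain factor on which tuft cells depend, including the chemosensory microvillous cells of the nose. TRPM5 is the cation channel of taste and tuft cell signalling, and AVIL encodes advillin, an actin-binding protein of the tuft cell brush.

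The wild type library held 4715 barcodes with a median of 3032 unique molecular identifiers (UMIs, each a transcript counted once), and the knockout library held 6054 with a median of 2138. After removal of nuclei with few genes or high doublet scores, 4536 wild type and 5761 knockout nuclei remained. The libraries shared 8 barcodes. Levels are given as CPM, a gene's UMIs per 1e6 UMIs of the nuclei named. The nuclei formed 23 clusters, which were built without the 7 genes and CFTR among the variable genes and were named without them. Olfactory identity was present, with 945 wild type and 924 knockout nuclei in mature olfactory neuron-like clusters. The libraries differed in composition. The respiratory ciliated-like cluster 19 held 32 wild type and 466 knockout nuclei, and the respiratory secretory-like cluster 21 held 26 and 315. The mature neuron-like cluster 1 held 791 and 98, and cluster 6 held 154 and 826. The unnamed cluster 10, of low depth, held 53 and 954, with 4 markers each of respiratory secretory cells and mature neurons.

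Cluster 16 was ionocyte-like. It carried 8 ionocyte markers (ATP6V1B1, ATP6V1C2, ATP6V1G3, BSND, STAP1, HEPACAM2, DMRT2 and CLNK) and held 52 wild type and 59 knockout nuclei. CFTR itself, which was not used for the name, was at 1431 CPM there in the wild type library, with a UMI in 51 of 52 nuclei. In the knockout library it was at 119 CPM, with a UMI in 13 of 59 nuclei. No cluster was tuft-like under the main clustering or any alternative clustering. Glia-like nuclei of cluster 12 (334 nuclei, median 2257 UMIs, against 3250 in cluster 16) were used to gauge free RNA, except for ESRRG, for which mature neuron-like nuclei were lower and are given.

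FOXI1 was rare and concentrated in cluster 16. In the wild type library it gave 26 UMIs in 20 nuclei (1.52 CPM), and in the knockout library 16 UMIs in 14 nuclei (1.06 CPM). Within cluster 16 it reached 50.2 CPM in the wild type nuclei (28.1 to 82.7) and 47.7 CPM in the knockout nuclei (24.7 to 83.4). These levels overlapped. Of all 42 FOXI1 UMIs, 64.3% fell in cluster 16, where the level was 104-fold that of the other nuclei (53.2 to 210). A FOXI1 UMI was seen in 24 of 111 nuclei of the cluster (21.6%, 14.4 to 30.4) and in 0 of 334 glia-like nuclei, which allows a share of up to 0.898% at a limit of 3 counts, the limit used for every 0 below (1.10% by the exact interval). Such a limit is for nuclei with a UMI, not for nuclei that express the gene. After thinning to 1000 UMIs per nucleus it was seen in 9 of 106 and in 0 of 311.

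Another 10 FOXI1 nuclei lay outside cluster 16. All 10 had an ESRRG UMI, 9 had ATP6V1B1, which encodes a subunit of the vacuolar proton pump, and 8 had STAP1, a signalling adaptor. POU2F3 was in 4 of these 10 but in 0 of the 24 FOXI1 nuclei inside cluster 16. They lay in clusters 17, 19, 13, 18, 21 and 2, with 3 nuclei each in clusters 17 and 19. Their depth was higher, with a median of 8067 UMIs against 4099.5 for the 24 FOXI1 nuclei of cluster 16. The part of depth and of free RNA in their position was not tested.

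ASCL3 was rarer. It gave 7 UMIs in 6 wild type nuclei and 5 UMIs in 3 knockout nuclei. Of these, 5 nuclei lay in cluster 16 (14.5 CPM, 6.27 to 28.6), and all 5 carried ESRRG and STAP1. The other 4 nuclei lay in neuron-like, fibroblast-like and ciliated-like clusters, had 1 ASCL3 UMI each, and none had a UMI of FOXI1, TFCP2L1, ESRRG, CFTR or STAP1. In the RefSeq annotation of Sscrofa11.1 ASCL3 overlaps AKIP1, and the sources used here do not say whether the counting used strand, so single ASCL3 UMIs are uncertain. The other 6 genes overlap no annotated gene.

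ESRRG marked every nucleus of cluster 16. All 52 wild type and all 59 knockout nuclei had at least 1 UMI, at 2010 CPM (1852 to 2177) and 1949 CPM (1780 to 2129). Per nucleus, the wild type level ran from 5.16 to 112 UMIs per 10000 with a median of 23.7, and the knockout level from 2.86 to 93.4 with a median of 21.5. The ranges of the libraries overlapped almost fully. With nuclei thinned to 1000 UMIs, 91 of 106 still had ESRRG.

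ESRRG was also present elsewhere. The ciliated-like cluster 19 stood at 719 CPM in wild type (604 to 850) and 547 CPM in knockout (518 to 577). Cluster 13, a Bowman gland-like cluster with BPIFB3, BPIFB4 and BPIFB6, stood at 328 CPM (278 to 386) and 710 CPM (611 to 821). Cluster 19 was thus second in the wild type library and cluster 13 in the knockout library, and neither pair of intervals overlapped. The share of ESRRG-positive nuclei was 66.3% in cluster 19 and 40.4% in cluster 13. The mature neuron-like clusters 1 and 6 were far lower, at 18.4 CPM (7.87% of nuclei, median 4150 UMIs) and 23.7 CPM (6.12%, median 2625). Between them lay glia-like nuclei at 108 CPM (87.0 to 134; 17.1% of nuclei), the secretory-like cluster 21 at 105 CPM (87.1 to 126) and the precursor-like cluster 17 at 86.1 CPM (71.7 to 103). Pooled over the libraries, these 3 clusters exceeded the neuron-like ones beyond counting error. For cluster 21 this held in the knockout library, at 116 CPM (95.6 to 139) in 315 nuclei, but not in the wild type library. There cluster 21 had 1 ESRRG UMI in 26 nuclei, at 9.23 CPM (0.23 to 51.4). That interval includes the 20.2 CPM of the wild type mature neuron-like nuclei. In cluster 17, however, the 94 wild type UMIs came from 13 of 180 nuclei, and nuclei with POU2F3 held 35, 28, 11 and 8 of them. The interval does not cover such unevenness between nuclei.

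TFCP2L1 had a different second site. Its level in cluster 16 was 398 CPM in wild type (330 to 476) and 362 CPM in knockout (291 to 444), with a UMI in 78 of 111 nuclei. The horizontal basal-like cluster 14 came next, at 94.9 CPM in wild type (69.7 to 126) and 282 CPM in knockout (226 to 348). The secretory-like cluster 21 stood at 36.9 CPM (10.1 to 94.5) and 179 CPM (153 to 207). Cluster 14 exceeded cluster 21 beyond counting error in the knockout library, while the wild type intervals overlapped. Pooled over libraries of unlike size, the clusters stood at 166 and 165 CPM. Ciliated-like nuclei stood at 62.5 CPM in wild type (32.3 to 109) and 54.2 CPM in knockout (45.3 to 64.3). Glia-like nuclei had TFCP2L1 in 3 of 334 (0.898%), against 24.5% in cluster 14, 25.8% in cluster 21 and 14.7% in cluster 19.

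The TFCP2L1 nuclei of the horizontal basal-like cluster did not look like those of cluster 16. Of its 71 nuclei with TFCP2L1, 3 carried 3 or more ionocyte markers (4.23%), against 8 of 219 without TFCP2L1 (3.65%). In cluster 16, which owes its name to such markers, the count was 75 of 78 with TFCP2L1 and 29 of 33 without. In the ciliated-like cluster 82 of 330 nuclei with ESRRG carried 3 or more ionocyte markers (24.8%), against 12 of 168 without (7.14%). With ESRRG, the share was 35.3% in cluster 4, 33.3% in cluster 17, 29.4% in clusters 2 and 3 and 24.4% in cluster 21. Without ESRRG it was 11.3%, 5.30%, 18.3%, 13.8% and 4.73% in these clusters. Apart from cluster 16, every other cluster had 14.3% or less with ESRRG. Ciliated-like nuclei with ESRRG were deeper, at a median of 4407 against 2961.5 UMIs. Whether depth accounts for these differences was not tested.

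**Figure D1:**
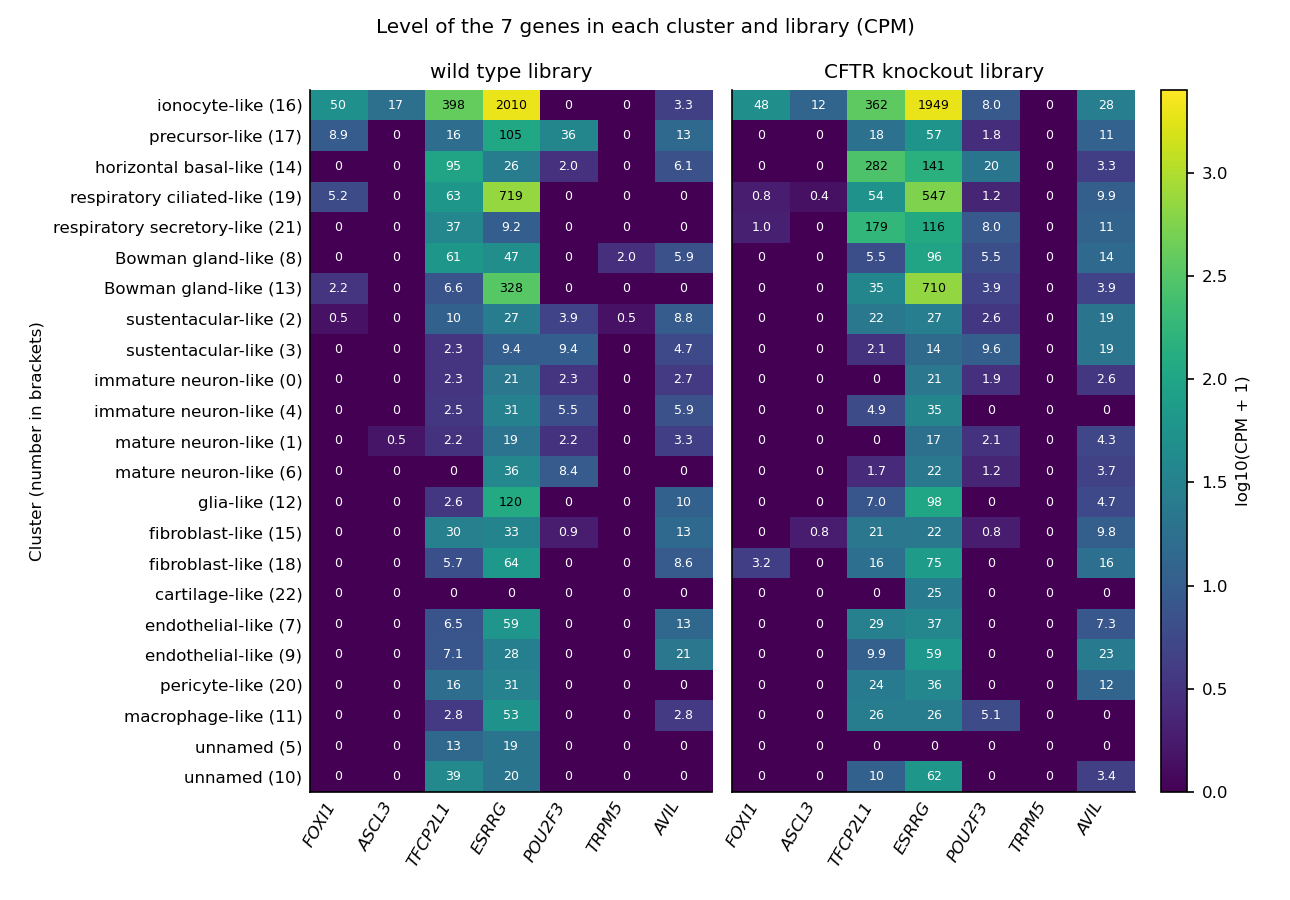
Level in CPM (colour, log10 of CPM + 1; numbers, CPM) of the 7 genes in each of 23 clusters, for the wild type library at left and the CFTR knockout library at right. FOXI1, ASCL3, TFCP2L1 and ESRRG are highest in the ionocyte-like cluster 16 in both libraries, while POU2F3 is highest in the precursor-like cluster 17 in the wild type library.

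Measured against all genes, this concentration was unusual. Of 16106 genes with at least 20 UMIs, 0.18% had 50% or more of their CPM summed over the clusters in cluster 16. FOXI1 (82.7%) and ESRRG (50.2%) were among them, TFCP2L1 (38.8%) was not, and ASCL3 (91.8%) had only 12 UMIs and was not counted. The share of ESRRG lay just past that threshold and was computed on 1 clustering. With each library clustered on its own, or with no doublet removal, its level in the ionocyte-like clusters was 921 or 879 CPM in place of 1982. At least 8-fold above the other nuclei stood 0.522% of the genes. That included FOXI1, ESRRG at 21.8-fold (20.3 to 23.3) and TFCP2L1 at 17.4-fold (14.8 to 20.3). POU2F3 (0.99-fold, 0.12 to 3.67) and AVIL (2.03-fold, 0.87 to 4.07) did not stand apart there, and TRPM5 had no UMI in cluster 16.

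**Figure D2:**
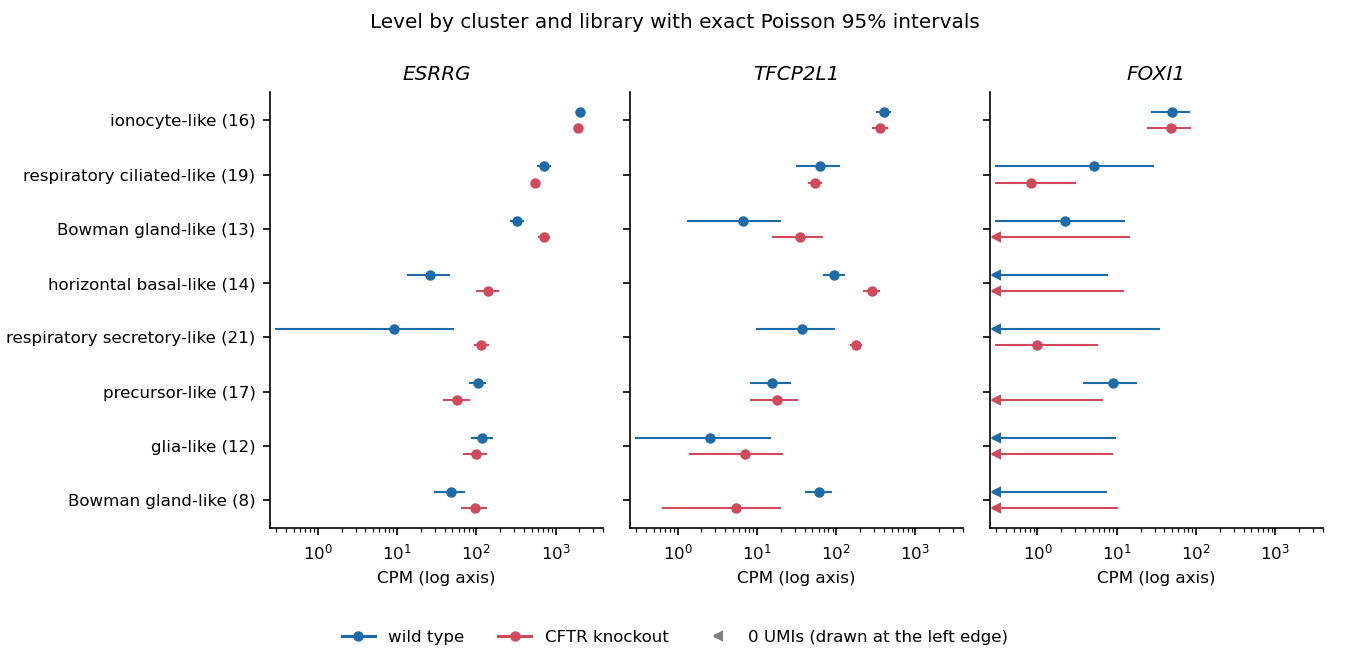
Level in CPM on a log axis of ESRRG, TFCP2L1 and FOXI1 in 8 clusters; points are the wild type (blue) and knockout (red) libraries and bars exact Poisson 95% intervals, with triangles at the left edge for 0 UMIs. The libraries overlap in the ionocyte-like cluster 16 for all 3 genes and lie apart for TFCP2L1 and ESRRG in the horizontal basal-like cluster 14.

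Over all nuclei, TFCP2L1 and ESRRG were higher in the knockout library. TFCP2L1 was at 18.5 CPM in wild type and 38.9 CPM in knockout, a ratio of 2.10 (1.83 to 2.42). ESRRG was at 84.3 and 168 CPM, a ratio of 1.99 (1.86 to 2.12). Of 16106 genes, 9.88% lay past 2-fold in either direction, 6.86% higher and 3.02% lower in the knockout library. TFCP2L1 was the only one of the 7 with at least 20 UMIs to lie past 2-fold. With other scalings (TMM or median-of-ratios factors) its log2 ratio was 0.98 or 0.96, just under 2-fold. AVIL was at 5.95 and 8.79 CPM (ratio 1.48, 1.13 to 1.93) and POU2F3 at 4.38 and 2.84 CPM (ratio 0.65, 0.44 to 0.96). The log2 ratio of POU2F3 was -0.62, and with no doublet removal it was -0.40 (-0.90 to 0.10), an interval that includes 0. The ratio of FOXI1 was 0.70 (0.35 to 1.35) and that of ASCL3 0.81 (0.20 to 2.96), and both intervals include 1.

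The share of respiratory nuclei moved with these ratios. Clusters 19 and 21 made up 0.705% and 0.573% of the wild type nuclei but 8.09% and 5.47% of the knockout nuclei, and both carried ESRRG or TFCP2L1. Levels inside cluster 21 differed as well: TFCP2L1 had a ratio of 4.84 (1.86 to 17.9), and ESRRG was at 9.23 CPM (0.23 to 51.4) in 26 wild type nuclei and 116 CPM (95.6 to 139) in 315 knockout nuclei. Without clusters 19 and 21, an alternative chosen after the data were seen, TFCP2L1 was at 17.9 CPM in wild type and 23.7 CPM in knockout, and ESRRG at 77.5 and 92.9 CPM. The log2 ratio of TFCP2L1 was then 0.41 (0.17 to 0.65) in place of 1.07, and that of ESRRG 0.26 (0.14 to 0.38) in place of 0.99. The unnamed cluster 10, which carried 4 respiratory secretory markers, stayed in. With 1 library each, animal, dissected piece and genotype cannot be told apart.

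Within cluster 16 the intervals of the ratios of FOXI1, TFCP2L1 and ESRRG all included 1. The knockout over wild type ratio was 0.95 for FOXI1 (0.41 to 2.18), 0.91 for TFCP2L1 (0.68 to 1.2) and 0.97 for ESRRG (0.86 to 1.09). The interval is narrow for ESRRG, while for FOXI1 it also takes in differences of more than 2-fold either way. AVIL had 1 UMI from 1 of 52 wild type nuclei (1.92%) and 7 UMIs from 4 of 59 knockout nuclei (6.78%). The interval of its UMI ratio, 8.32 (1.07 to 375), excludes 1 but treats UMIs of the same nucleus as independent. CFTR stood at a ratio of 0.08 (0.06 to 0.12). Of 5638 genes with at least 20 UMIs in the cluster, 11.8% lay past 2-fold. Of 18 listed ionocyte effectors with that depth, 3 were higher and 2 lower past 2-fold, and the list's median log2 ratio was -0.02, against 0.15 over all genes there. CFTR and DMRT2, a transcription factor at 83.6 CPM in wild type and 23.9 CPM in knockout, were the lower ones. SLC4A1 (33.4 and 91.5 CPM) and SLC26A4 (20.1 and 87.5 CPM), both anion exchangers, and GOLM1, a Golgi protein (114 and 231 CPM), were the higher ones, and 22 knockout SLC26A4 UMIs came from 5 nuclei.

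In the horizontal basal-like cluster 14 the libraries lay apart. TFCP2L1 gave 47 UMIs in 22 of 130 wild type nuclei (94.9 CPM) and 86 UMIs in 49 of 160 knockout nuclei (282 CPM), a ratio of 2.97 (2.06 to 4.34). ESRRG gave 13 UMIs in 9 nuclei (26.2 CPM) and 43 UMIs in 22 nuclei (141 CPM), a ratio of 5.38 (2.84 to 10.9). Of 7162 genes with at least 20 UMIs in that cluster, 15.1% lay past 2-fold in either direction and 7.78% were at least 2-fold higher in the knockout library. Mature neuron-like nuclei held ESRRG at 20.2 CPM in wild type (16 to 25.1) and 21.1 CPM in knockout (16.1 to 27.1). Cluster 14 overlapped that level in wild type (14 to 44.9) and lay above it in knockout (102 to 190).

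Co-detection in single nuclei tied FOXI1 to ESRRG. All 20 wild type and all 14 knockout nuclei with FOXI1 also had ESRRG, 34 of 34 in all (89.7% to 100%), against 11.2% of the nuclei without FOXI1. No FOXI1 UMI was found in any of 9115 nuclei without ESRRG, which allows a share of up to 0.0329%. TFCP2L1 was in 16 of 20 wild type and 13 of 14 knockout FOXI1 nuclei, 85.3% in all (68.9% to 95%), against 4.21% of the others. Among genes with at least 20 UMIs, 0.919% were at least 8-fold more often detected in FOXI1 nuclei and found in at least 3 of them, and ESRRG, TFCP2L1 and POU2F3 were past that fold. Thinned to 1000 UMIs, 10 of 10 FOXI1 nuclei had ESRRG and 5 of 10 had TFCP2L1, against 6.2% and 2.27% of the others.

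The relation was not mutual. Of 1182 nuclei with ESRRG, 34 had FOXI1 (2.88%) and 188 had TFCP2L1 (15.9%). Of 461 nuclei with TFCP2L1, 188 had ESRRG (40.8%), against 10.1% of those without TFCP2L1. FOXI1 was a low transcript: 29 of its 34 positive nuclei had a single UMI, so its absence from a nucleus of cluster 16 says little. Inside cluster 16 the 24 nuclei with a FOXI1 UMI stood at 2613 CPM of ESRRG and 493 CPM of TFCP2L1, and the 87 without at 1775 and 345 CPM. The ratios were 1.47 (1.29 to 1.67) and 1.43 (1.05 to 1.92). Of the 355 ESRRG UMIs in the nuclei with FOXI1, single nuclei held 55, 47 and 46. The intervals treat UMIs as independent and do not cover such unevenness between nuclei. The nuclei with FOXI1 were deeper, at a median of 4099.5 against 2933 UMIs, and the part of depth was not tested.

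**Figure D3:**
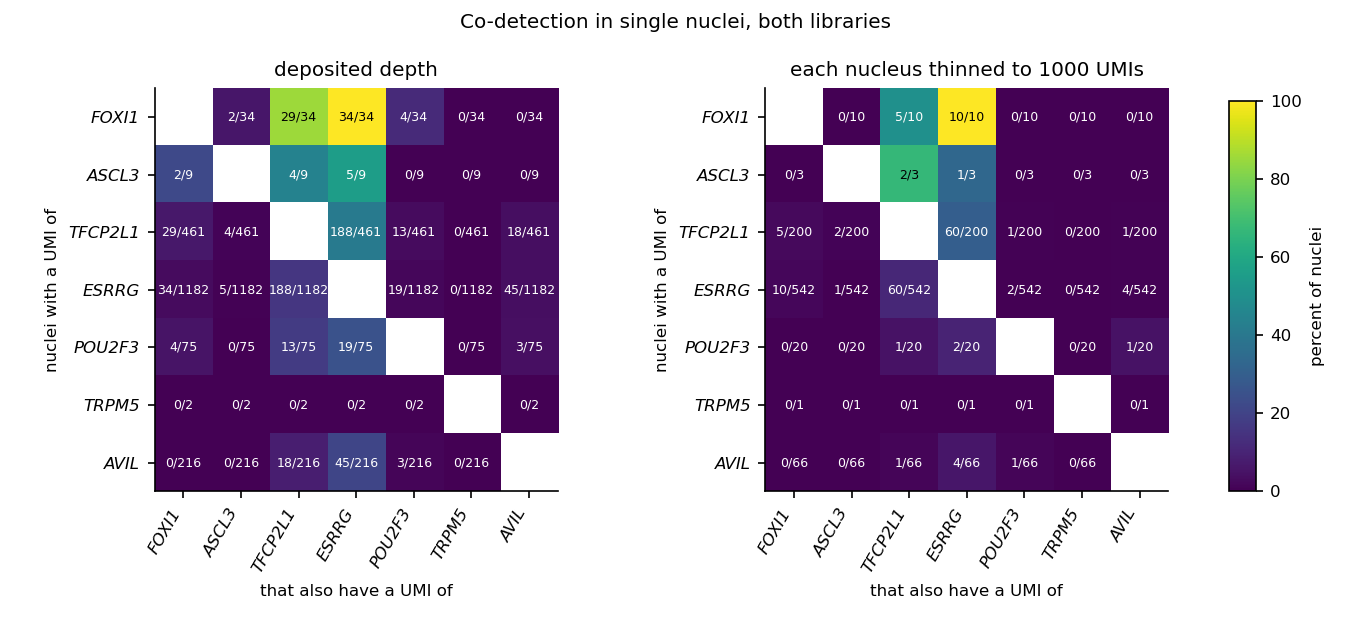
Co-detection in single nuclei of both libraries: each cell gives the nuclei with a UMI of the row gene that also have a UMI of the column gene, coloured by percent, at the deposited depth (left) and with nuclei thinned to 1000 UMIs (right). FOXI1 nuclei all carry ESRRG at both depths, 34 of 34 and 10 of 10.

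POU2F3 was spread thinly over 15 clusters. It gave 75 UMIs in 45 wild type nuclei and 43 UMIs in 30 knockout nuclei, of which 33 and 26 nuclei had a single UMI. Its highest level was in cluster 17, the globose basal or precursor-like cluster, at 22.6 CPM (15.5 to 31.7). That level came from the wild type library: 32 UMIs in 10 of 180 nuclei (35.6 CPM, 24.4 to 50.3), against 1 UMI in 1 of 114 knockout nuclei (1.77 CPM, 0.04 to 9.86). The intervals did not overlap, and the ratio was 0.05 (0.0012 to 0.30). Of 9156 genes with at least 20 UMIs in cluster 17, 7.56% lay past 2-fold. When no nuclei were removed for their doublet score, the corresponding precursor-like cluster held 31 UMIs in 9 wild type nuclei (39.6 CPM) and 8 UMIs in 4 knockout nuclei (14.8 CPM). Glia-like nuclei had POU2F3 in 0 of 334.

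Nuclei with at least 2 POU2F3 UMIs were the more certain ones, and there were 12 wild type and 4 knockout nuclei of that kind. Another 5, 2 wild type and 3 knockout, lay among the nuclei removed for high doublet scores. Of all 21, 19 carried HEPACAM2, a cell adhesion gene listed with the ionocyte effectors and also known from tuft cells (90.5%, 69.6% to 98.8%), against 9.89% of nuclei without POU2F3. SH2D7, an SH2-domain adaptor, was in 10 of 21 (47.6%, against 0.393%), and the kinase gene BMX in 8 of 21 (38.1%, against 1.51%). RGS13, a regulator of G-protein signalling, was in 8 of 21 (against 1.19%), and CHAT, which makes acetylcholine, in 6 of 21 (28.6%, against 0.178%). The markers that named the precursor-like cluster 17 were unlike each other here. KIT, the receptor of stem cell factor, was in 11 of 21 (52.4%, against 5.60%) and EZH2 in 9 of 21 (42.9%, against 15.5%). HES6 was in 4 of 21 (19%, against 11.2%), TOP2A in 3 of 21 (14.3%, against 4.13%) and NEUROD1 in 0 of 21 (against 0.908%).

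These 21 nuclei were of more than one kind. Sorted by SH2D7, LRMP, RGS13, BMX, PLCG2, CHAT, GNAT3 and ALOX5, a set of 8 listed tuft genes picked after their values were seen, 10 nuclei had 2 or more of them. Those were 5 wild type and 5 knockout nuclei, and 1 of the 10 had KIT. Another 7 nuclei, 5 wild type and 2 knockout, had none of the 8 genes, and 6 of these 7 had KIT. The remaining 4 nuclei, all wild type, had 1 of the 8 genes, and all 4 had KIT. Median depths were 4031.5 UMIs with 2 or more of the genes, 14092.5 with 1 and 4154 with none. AVIL was in 4 of the 10 and in none of the others. GNAT3, the taste G protein gustducin, came from 2 knockout nuclei, with 33 UMIs in 1 and 29 in the other. As a description chosen from the values, this grouping has no test.

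TRPM5 was close to undetected. The wild type library gave 2 UMIs in 2 nuclei, neither of which had POU2F3, and the kept knockout nuclei gave 0 UMIs, which allows a UMI in up to 0.0521% of nuclei. Before doublet removal the knockout library had 2 nuclei with TRPM5. Both had POU2F3 (3 and 5 UMIs) and AVIL (2 and 4 UMIs), and both had LRMP and PLCG2.

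AVIL was low and broad. It was found in 97 wild type nuclei (2.14%) and 119 knockout nuclei (2.07%), in 21 of 23 clusters, and in 6 of 334 glia-like nuclei (1.80%). Its highest level, 22.5 CPM in the endothelial-like cluster 9 (10.8 to 41.4), did not lie beyond counting error from the 14.6 CPM of the sustentacular-like cluster 3 (8.94 to 22.6). AVIL was in 3 of 75 nuclei with POU2F3 (4.00%, 0.83 to 11.2), against 2.08% of those without.

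**Figure D4:**
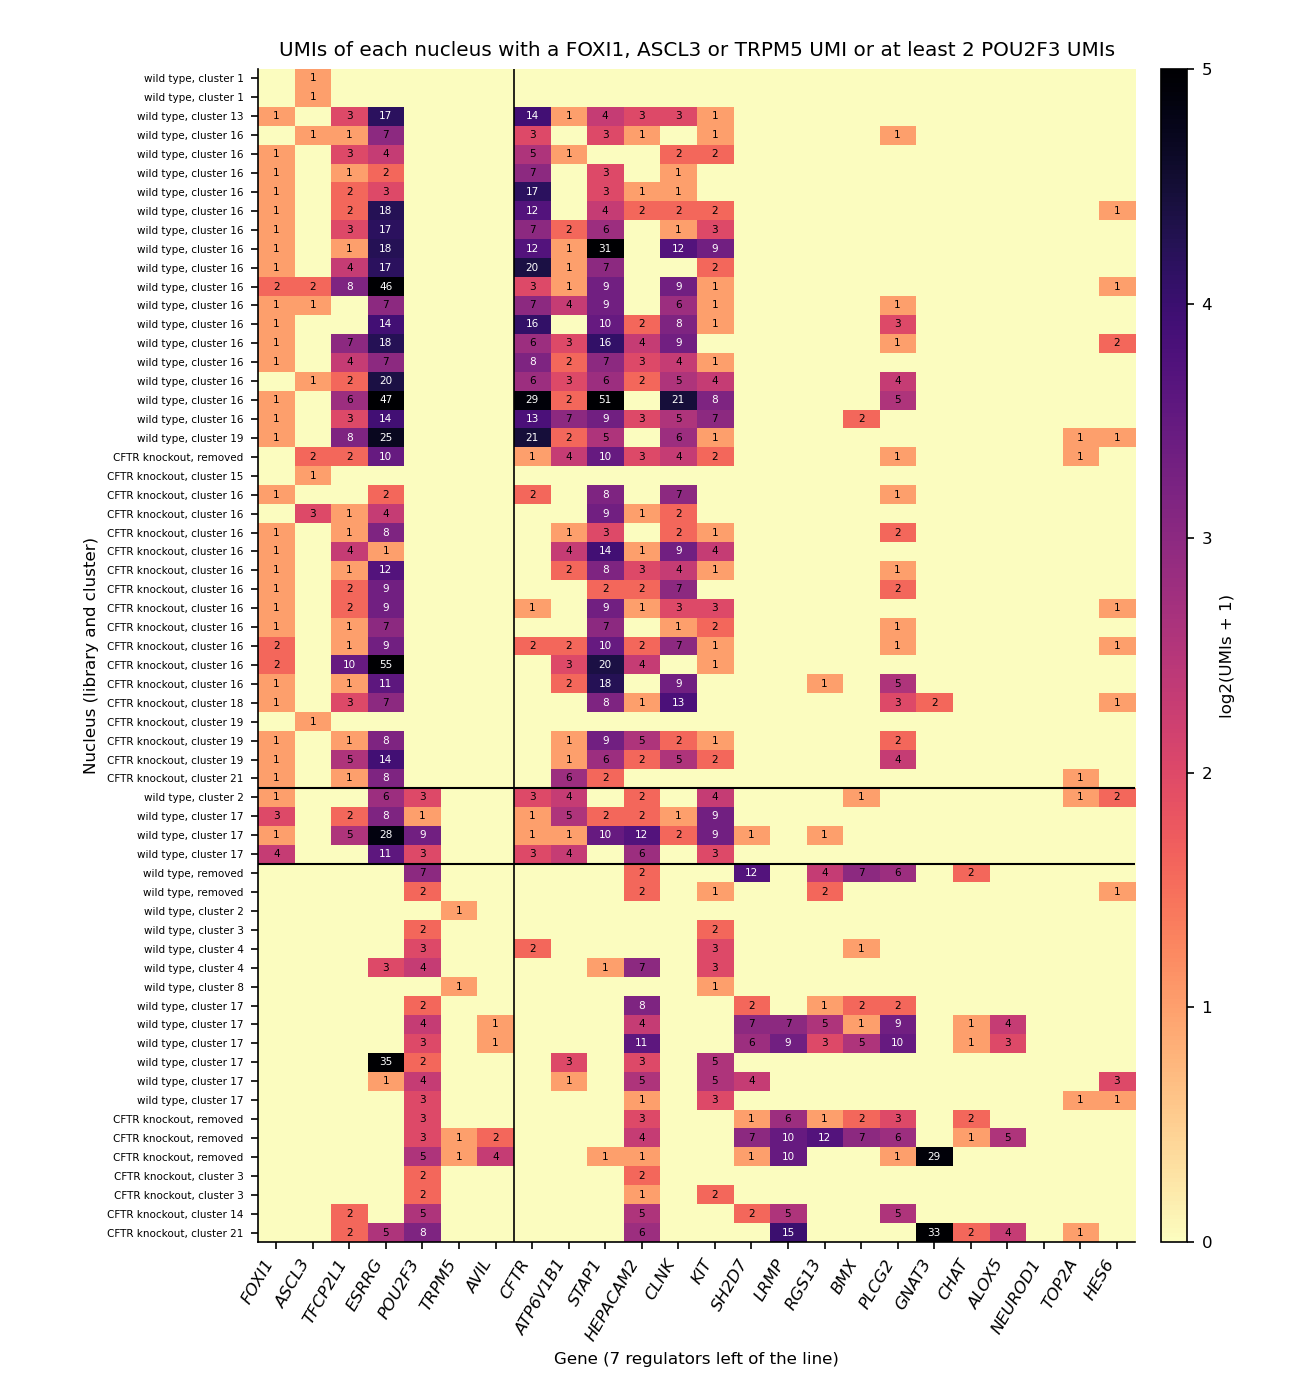
UMIs (numbers; colour, log2 of UMIs + 1, which stops at 5) of 24 genes in each of the 62 nuclei with a FOXI1, ASCL3 or TRPM5 UMI or at least 2 POU2F3 UMIs, with the library and cluster of each nucleus at left and "removed" for nuclei taken out by doublet score. Horizontal lines part the nuclei with ionocyte regulators, the 4 with both, and those with tuft regulators; the 4 with both all carry ESRRG, HEPACAM2, ATP6V1B1 and KIT.

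FOXI1 and POU2F3 met in 4 nuclei, all wild type: 4 of 20 wild type FOXI1 nuclei (20.0%, 5.73% to 43.7%) and 0 of 14 knockout ones. Of all wild type nuclei, 0.992% had POU2F3. In both libraries together, POU2F3 was in 11.8% of the 34 FOXI1 nuclei (3.30% to 27.5%), against 0.692% of nuclei without FOXI1. The FOXI1 UMIs of the 4 nuclei were 1, 3, 1 and 4, and their POU2F3 UMIs 3, 1, 9 and 3, in the same order. All 4 carried ESRRG (6 to 28 UMIs), HEPACAM2, ATP6V1B1 and KIT, and 3 of them lay in cluster 17, the other in the sustentacular-like cluster 2. Their depths were 30877, 3172, 6256 and 7217 UMIs, and their doublet scores lay at the 66.5, 87.0, 93.7 and 80.2 percentile of the wild type library. Of all genes, 0.106% were found in at least 3 of the 4 nuclei and were, over the 4 together, at least 8-fold above nuclei with neither regulator. Among them were the ionocyte effectors ATP6V1B1 (11.7-fold) and HEPACAM2 (11.3-fold), and SOX4 and KIT of the tuft lists. KIT, however, was also in 61 of 111 nuclei of cluster 16 and was a marker that named cluster 17. Of the tuft genes used for sorting above, SH2D7, RGS13 and BMX had 1 UMI each in the 4 nuclei. LRMP, PLCG2, CHAT, GNAT3 and ALOX5 had none. The part of doublets in these nuclei was not tested. Thinned to 1000 UMIs, 0 of 10 FOXI1 nuclei had POU2F3. No nucleus of cluster 16 had both genes.

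Nuclei were also set apart by their regulators alone. Of the kept nuclei, 37 had FOXI1 or ASCL3 and neither POU2F3 nor TRPM5 (ionocyte-only), and 73 had POU2F3 or TRPM5 and neither FOXI1 nor ASCL3 (tuft-only). Of the ionocyte-only nuclei 27 lay in cluster 16 (73.0%), against 2 of the tuft-only nuclei (2.74%). Their median depths were 4338 and 4154 UMIs, against 2451 for nuclei with neither. A gene was counted when it had at least 20 UMIs in all, was at least 8-fold above the nuclei with neither, and was found in at least 3 nuclei of the set. The gene lists were chosen with earlier results of these data known, so the counts are a description only. In the ionocyte-only nuclei 10 of 24 ionocyte effectors passed, where 0.41% of all genes did, and 0 of 42 tuft genes did. KIT (6.56-fold) and PLCG2 (7.69-fold), both on the tuft lists, came close, and PLCG2 was higher in ionocyte-only than in tuft-only nuclei (170 and 72.9 CPM). In the 27 ionocyte-only nuclei of cluster 16 alone both passed, at 8.71-fold and 8.43-fold, where 0.497% of all genes did. The list's median was 4.87-fold, against 0.81-fold over all genes. CLNK, an immune-type adaptor, was at 764 CPM (54.0-fold, 44.9 to 64.7), STAP1 at 1455 CPM (48.2-fold, 42.3 to 54.9) and CFTR at 971 CPM (20.5-fold, 17.7 to 23.7). The CFTR value pools 20 wild type and 17 knockout nuclei and describes neither library. ATP6V1G3, a proton pump subunit, was at 180 CPM (29.9-fold, 20.6 to 42.3), and SCNN1B, a sodium channel subunit, at 143 CPM (13.6-fold, 9.09 to 19.7). ATP6V1B1, SLC4A1, SLC26A4, DMRT2 and TMEM61 made up the 10.

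In the tuft-only nuclei 4 of 42 tuft genes passed, where 0.0869% of all genes did, and 0 of 24 ionocyte effectors did. GNAT3 (38.6-fold, 33 UMIs in 1 nucleus) and GFI1B (9.88-fold, 5 UMIs in 2 nuclei) were past 8-fold in too few nuclei. The 4 were SH2D7 (23.1-fold, 13.6 to 38.1), CHAT (12.1-fold, 2.98 to 36.3), ALOX5, the leukotriene synthesis enzyme (11.1-fold, 5.80 to 19.9), and LRMP (10.9-fold, 7.42 to 15.7). The 36 LRMP UMIs came from 4 of 73 nuclei. The list's median was 1.57-fold, against 0.92-fold over all genes.

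Stricter sets gave more tuft genes from fewer nuclei. With 2 UMIs needed, 9 tuft genes passed in 13 tuft-only nuclei, where 0.248% of all genes did, and 4 effectors passed in 4 ionocyte-only nuclei, where 0.248% of all genes did as well. With no removal by doublet score, 7 of 45 passed in 84 tuft-only nuclei, where 0.135% of all genes did. With 2 UMIs needed and no nuclei removed for their doublet score, an alternative chosen after the data were seen, 18 tuft-only nuclei remained, and 13 of 45 tuft genes passed, where 0.344% of all genes did. In the 5 ionocyte-only nuclei of that setting 3 effectors passed (ATP6V1G3, STAP1 and CLNK), where 0.166% of all genes did. The tuft genes that passed included genes of leukotriene and prostaglandin synthesis (ALOX5, ALOX5AP and PTGS1), of acetylcholine synthesis (CHAT) and of signalling or transcription (GFI1B, BMX, VAV1, PLCG2, SH2D6, SH2D7, LRMP and RGS13). SH2D7 was at 315 CPM in 9 of the 18 nuclei and LRMP at 465 CPM in 7 of them. Of the taste transduction list 0 of 8 and of the brush and keratin list 0 of 7 passed, but GNAT3 was at 308-fold with 62 UMIs from 2 nuclei. HEPACAM2, at 487 CPM, was the only ionocyte effector that passed in these tuft-only nuclei.

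**Figure D5:**
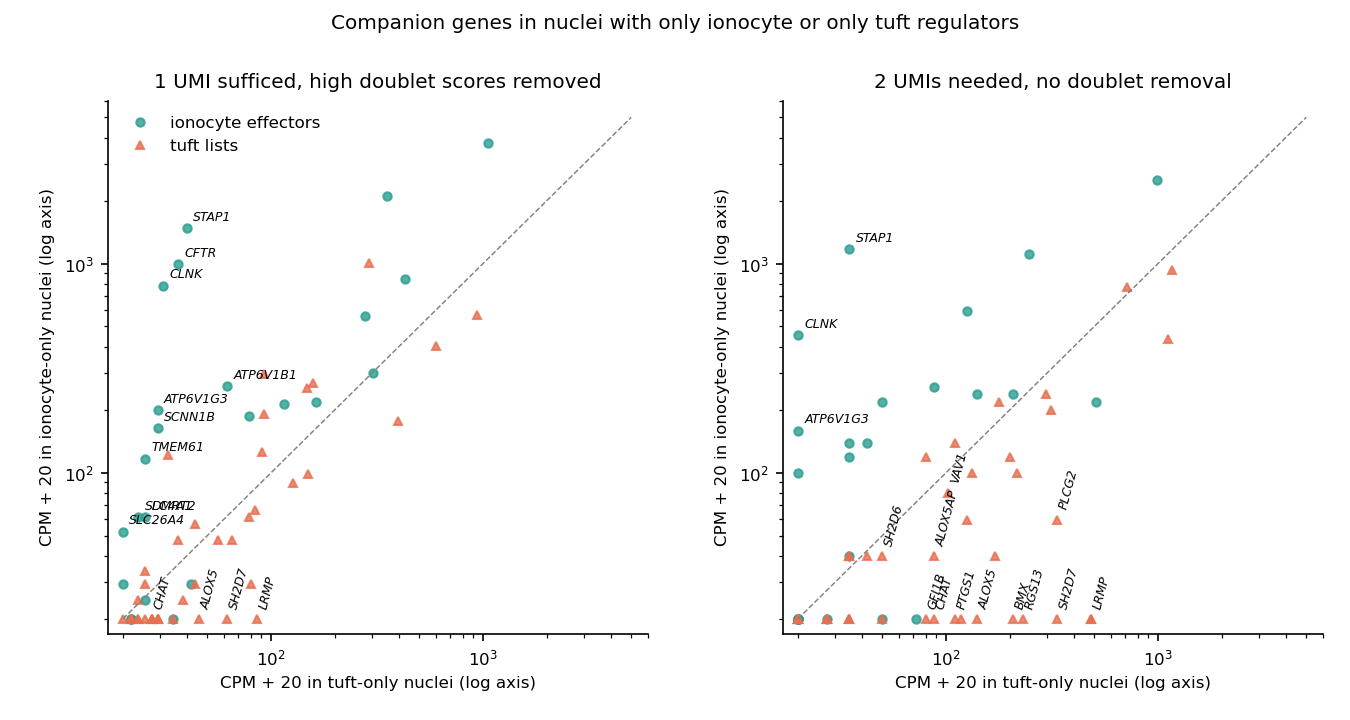
CPM + 20 (log axes) of listed ionocyte effectors (green circles) and tuft genes (orange triangles) in tuft-only (x) and ionocyte-only (y) nuclei, with 1 UMI sufficient and high doublet scores removed (left) and with 2 UMIs needed and no removal (right); the dashed line marks equal levels. Named genes are at least 8-fold above nuclei with neither regulator and in at least 3 nuclei: 10 ionocyte effectors and 4 tuft genes at left, and 3 ionocyte effectors and 12 tuft genes at right, where VAV1 is the 1 tuft gene that passed in both sets.

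Set directly against each other, the ionocyte-only and tuft-only nuclei parted most at STAP1 (1455 and 20.0 CPM), CFTR (971 and 16.4 CPM) and CLNK (764 and 10.9 CPM) on the ionocyte side. Next came ADGRF1, SLC35F3, PDGFD, LRRTM3, HPSE, NCALD and SCN1A. On the tuft side, MCTP1 (23.0 and 459 CPM), POU2F3 itself, OPCML, TENM2, THSD7B, SLC8A1, PURG, EBF2, HECW1 and a gene known by identifier only led. Several of these, such as OPCML (121 UMIs from 6 nuclei) and EBF2, a factor of immature olfactory neurons, are neuronal genes, and the immature neuron-like cluster 4 held POU2F3 at 4.70 CPM. Of 7061 genes with at least 20 UMIs in these nuclei, 11.1% differed by more than 2-fold on CPM + 20.

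Genes with the pattern most like each regulator were ranked by Pearson's r of log2(CPM + 20) over 44 points, each a cluster in 1 library. The points share libraries and depth, so r is a description. FOXI1 was most like CLNK (0.94), BDNF (0.93), GPRC6A (0.92), INSRR (0.91) and SLC9A4 (0.91). ESRRG was most like SLC31A2, LRTM1, SLC9A4, DMRT2 and CLNK, at 0.77 to 0.79, and TFCP2L1 like SCNN1B and SCNN1G, both sodium channel subunits, and SLC35F3, each at 0.81. POU2F3 (RAB44, 0.68) and AVIL (SFSWAP, 0.66) had no gene above 0.70. Between the regulators, r was 0.73 for FOXI1 and ESRRG, 0.64 for FOXI1 and TFCP2L1, and 0.16 for FOXI1 and POU2F3.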

How the data were processed

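The authors deposited raw UMI counts in 1 gene-by-barcode table for each library. Cell Ranger, Seurat 4.0 and R 4.0.2 appear in the submitters' processing notes; aligner, genome build and annotation: not given in the sources used here. Nuclei came from frozen sections by citric acid isolation, per the labels' protocols. Of 8256 identifiers without a symbol, 1029 took one from a gene name table. IRAG2, POU2AF2 and POU2AF3 were read as LRMP, C11orf53 and COLCA2 after the data were seen.

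The regulators and gene lists were chosen with earlier results of these data known. Of all nuclei, 1 had fewer than 200 genes and was removed. Scrublet's own threshold called 1 nucleus per library and had not worked, so the highest scores were removed at 0.8% per 1000 nuclei (178 wild type, 293 knockout). Leiden clustering (scanpy 1.11.5, resolution 1) used 2000 variable genes, 30 components and 15 neighbours. A cluster name needed 3 markers, more than for any other type. A marker had to exceed the other clusters' median by 1 on log2(CPM + 20), be in 5% of nuclei and reach 50% of its highest level. Clusters under 0.333 of the library's median depth stayed unnamed, and this naming rule was set after the data were seen. Levels have exact Poisson, shares Clopper-Pearson and ratios conditional binomial 95% intervals; a gene at 0 was set to 3 counts in folds. Scripts were tested on simulated data. Named genes were the 7 regulators, listed companions, the 5 most alike genes and the 10 largest differences each way. Alternatives were other scalings, filters, clusterings, thinning, a threshold of 2 UMIs and no doublet removal. Some listed genes are not reported here by name.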

Additional observations from a re-analysis of the deposited data

Results flagged for a closer look

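Some nuclei removed for their doublet score carried POU2F3: 5 of 471 removed nuclei (1.06%, 0.346 to 2.46) had at least 2 POU2F3 UMIs, against 16 of 10297 kept nuclei (0.155%, 0.0888 to 0.252). They lie outside the nuclei used in the main comparisons, which is why they are given here. All 5 had HEPACAM2, 4 had SH2D7, 4 had RGS13, 3 had CHAT and 2 had TRPM5, and none had FOXI1 or ESRRG. Both TRPM5 nuclei of the knockout library were among them. Their doublet scores lay between the 96.2 and 97.8 percentile of their libraries, and whether they were doublets was not tested.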

How the results depend on the processing

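Each genotype is 1 animal and 1 library, so intervals cover counting error and no spread between animals. FOXI1, ASCL3 and TRPM5 rest on few UMIs, which limits what an absent UMI says. No paired analysis was possible because each genotype has 1 library. Of 152 values recomputed, 107 moved by less than their interval or 1.5 times, 45 moved further, and none changed direction. The cause was not tested unless stated.

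The log2 ratio of TFCP2L1, 1.07 over all nuclei, was 0.98 with TMM factors and 0.96 with median-of-ratios factors. It was 0.72 with nuclei weighted equally and 0.41 without the respiratory-like clusters. That of ESRRG, 0.99, was 0.90 with TMM factors, 0.88 with median-of-ratios factors, 0.62 with nuclei weighted equally and 0.26 without those clusters.

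With each library clustered on its own, the ionocyte-like nuclei numbered 198, and FOXI1 stood at 20.1, ASCL3 at 5.37, TFCP2L1 at 188 and ESRRG at 921 CPM there. With no doublet removal they numbered 168, at 20.8, 5.95, 169 and 879 CPM in the same order. With all variable genes ESRRG was at 1836 CPM. The percent of UMIs in the ionocyte-like cluster was 26.3 with all variable genes and 30.9 by own library for TFCP2L1, and 30.2 and 34.5 for ESRRG. For POU2F3 it was 8.47 by own library and 6.94 with no doublet removal, and for AVIL 6.84 with no doublet removal.

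Thinned to 1000 UMIs, 50.0% of FOXI1 nuclei had TFCP2L1 and 0% had POU2F3, 0% of POU2F3 nuclei had FOXI1 and 10.0% had ESRRG, and 30% of TFCP2L1 nuclei had ESRRG. With 2 UMIs needed, 60% of FOXI1 nuclei had TFCP2L1, 37.5% of POU2F3 nuclei had ESRRG and 0% had AVIL, 47.0% of TFCP2L1 nuclei had ESRRG, and 100% of the ASCL3 nuclei did.

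The 2-UMI threshold left 4 ionocyte-only nuclei with 4 effectors called and 13 tuft-only nuclei with 9 tuft genes. No doublet removal gave 7 tuft genes. Both together, chosen after the data were seen, gave 5 nuclei with 3 effectors and 18 with 13 tuft genes. Within the ionocyte-like cluster 2 nuclei were tuft-only.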

Other observations

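Close relatives of the regulators were all under 3-fold higher in the ionocyte-like cluster 16, where a fold could be given. FOXI2 and FOXI3 had 1 UMI each in all nuclei, and ASCL2 and ASCL4 had 5 and 9, with none in cluster 16. TFCP2, the relative of TFCP2L1, was at 154 CPM there and 117 CPM in other nuclei (ratio 1.32, 1.05 to 1.64), against 17.4-fold for TFCP2L1. GRHL2, a grainyhead factor of epithelia, was at 285 and 188 CPM (1.51-fold, 1.28 to 1.77), with its highest level in the Bowman gland-like cluster 8. ESRRA was at 18.2 and 10.9 CPM (1.66-fold, 0.79 to 3.09) and ESRRB had 1 UMI in cluster 16. POU2F1 was at 316 and 228 CPM (1.38-fold, 1.18 to 1.61), and POU2F2, highest in the macrophage-like cluster, had none there.

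Among relatives of AVIL, VILL was at 23.6 CPM in cluster 16 and 8.01 CPM elsewhere (2.95-fold, 1.55 to 5.13). SCIN, another actin-severing gene, was lower there, at 65.4 against 173 CPM (0.38-fold, 0.26 to 0.52), and highest in the respiratory ciliated-like cluster at 733 CPM. TRPM4, the relative of TRPM5, had 6 UMIs in cluster 16 (1.34-fold, 0.49 to 2.96).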
